A study of Homo sapiens with 38 samples.

Results

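The genes examined here build, load or regulate major histocompatibility complex (MHC) class I molecules. There are 9 of them: HLA-B, HLA-C, HLA-E and HLA-F, which encode class I heavy chains, B2M, which encodes their common light chain, TAP1 and TAP2, which encode the peptide transporter, and the regulators NLRC5 and CIITA. They were chosen by name, with earlier results of these data known, out of 19974 protein-coding gene records of the RefSeq table for GRCh38.p14. For each gene, every line of 3 deposited peak lists that touched the gene record or the 20 kb on either side was taken, which gave 91 regions out of 168784 in the lists. Of these, 18 were GATA3 regions, 23 were BHLHE40 regions and 50 were regions of H3K27ac, the acetylation of histone H3 found at active promoters and enhancers. The values are from chromatin immunoprecipitation and sequencing (ChIP-seq) of the Jurkat line, which is established from human T-cell leukaemia. In this assay DNA attached to a protein or a modified histone is recovered with an antibody, and stretches with many reads are reported as peaks.

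All 3 groups used, named Ctrl_LV GATA3, Ctrl_LV BHLHE40 and Ctrl_LV H3K27ac, carried a control lentivirus and were stimulated with PMA (50 ng/ml) and ionomycin (500 ng/ml), a pair of drugs that imitates signalling through the T-cell receptor. The sample labels give the stimulation as 5 hours and the treatment protocol gives 2 hours. Each group held 2 samples and is represented by 1 list, so no spread between samples and no test between conditions can be given, and the sequencing depth is unknown. Base-edited cells and cells with the BHLHE40 lentivirus were not analysed here.

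MHC class I molecules display peptides from inside the cell to CD8 T cells and to receptors of natural killer cells. Peptides cut by the proteasome are carried into the endoplasmic reticulum by the TAP1 and TAP2 transporter, loaded onto a heavy chain paired with B2M, and taken to the cell surface. Promoters of the class I genes and of B2M carry an upstream element, the SXY module, at which RFX, CREB and NFY proteins assemble and recruit NLRC5. The related protein CIITA does the same at MHC class II genes, which act mainly in antigen-presenting cells. Interferon and NF-kB act through further promoter elements. GATA3 is a zinc-finger factor of T cells, and BHLHE40 is a basic helix-loop-helix factor that binds the E-box CACGTG.

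Printed here are the reference sequences before 5 member starts and the PSMB9 start next to TAP1, where some regions described below lie. They are RefSeq sequences of GRCh38.p14, given 5′ to 3′ in the direction of transcription and ending at the base just before the gene start. Capitals mark matches, on either strand, to 6 short motifs. These are the E-box (CACGTG), the core of a GATA site (GATAA), the Y box (CCAAT), one arm of the X2 box (TGACG), the interferon-stimulated response element or ISRE (searched as a repeat of GAAA with any 2 bases between the copies), and an NF-kB-like site (GGG, any 5 bases, then CC). Neighbouring or overlapping matches join into one run of capitals. The promoter table held 6 of the 9 members, and HLA-E, NLRC5 and CIITA had no entry.
B2M, chr15:44711367-44711516, plus strand: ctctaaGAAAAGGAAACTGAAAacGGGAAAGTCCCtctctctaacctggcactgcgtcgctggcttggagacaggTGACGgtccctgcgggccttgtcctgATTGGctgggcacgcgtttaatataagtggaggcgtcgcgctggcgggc
HLA-B, chr6:31357180-31357379, minus strand: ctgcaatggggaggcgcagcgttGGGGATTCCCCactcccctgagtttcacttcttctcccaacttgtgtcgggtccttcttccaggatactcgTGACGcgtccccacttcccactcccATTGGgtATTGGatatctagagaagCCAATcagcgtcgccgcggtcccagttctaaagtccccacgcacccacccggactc
HLA-C, chr6:31272093-31272292, minus strand: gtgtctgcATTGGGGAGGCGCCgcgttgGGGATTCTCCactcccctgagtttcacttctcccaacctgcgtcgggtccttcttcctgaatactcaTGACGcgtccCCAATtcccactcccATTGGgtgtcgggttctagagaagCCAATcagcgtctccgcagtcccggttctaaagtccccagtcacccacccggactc
TAP1, chr6:32853705-32853844, minus strand: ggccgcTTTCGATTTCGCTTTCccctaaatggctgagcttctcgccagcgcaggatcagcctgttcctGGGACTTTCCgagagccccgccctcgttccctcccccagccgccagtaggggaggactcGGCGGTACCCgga
TAP2, chr6:32838740-32838879, minus strand: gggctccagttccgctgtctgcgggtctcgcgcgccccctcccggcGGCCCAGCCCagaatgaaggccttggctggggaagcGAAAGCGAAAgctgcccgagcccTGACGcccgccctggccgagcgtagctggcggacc
PSMB9, chr6:32853992-32854191, plus strand: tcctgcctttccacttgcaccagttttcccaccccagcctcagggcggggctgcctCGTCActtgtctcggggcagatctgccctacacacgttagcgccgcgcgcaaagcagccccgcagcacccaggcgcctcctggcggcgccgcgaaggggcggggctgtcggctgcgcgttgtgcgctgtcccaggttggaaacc

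The ISRE had the lowest share of matches over all promoters. It matched the promoter windows (250 bases before to 50 after the start) of 4 of the 6 members with an entry (HLA-F, B2M, TAP1 and TAP2), against 3.57% of all 35116 windows in the table. In B2M and TAP1 it matched 2 times in overlapping positions. The search allowed no mismatch. HLA-B and HLA-C, which had no match, are therefore not shown to lack such an element. CCAAT matched in 5 of 6 members (all but TAP2) and in 34.6% of all windows, TGACG in 4 of 6 (HLA-B, HLA-C, B2M and TAP2) and in 24.6%, and the NF-kB-like site in 5 of 6 (all but HLA-F) and in 58.7%. GATAA matched in TAP1 and TAP2 and in 22.7% of all windows. The E-box matched in 0 of the 6 and in 7.26% of all windows, which says only that these letters are not in these windows. Matches are descriptions of letters and are not shown to be bound.

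The lists held 29009 GATA3, 26205 BHLHE40 and 113570 H3K27ac regions. The signal value of a region is the authors' own measure of its enrichment, and it was used only to rank regions within a list. The T-cell label was checked on marker genes: H3K27ac lay within 1 kb of the gene start at 8 of 8 T-cell markers, among them CD3D, CD3E and LCK, at 1 of 4 B-cell markers (CD79A, with a signal value of 2.16) and at 0 of 4 myeloid markers. Over all protein-coding genes this share was 55.4%. Genes without a listed start, such as CD3E, CD3G and CD7, counted either record end. The T-cell marker CD2, with 2.77, was also under the list median of 3.31, and CD3D and CD3G had the same value, 3.92.

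All 9 windows held at least 1 region of each list. Over all protein-coding genes, 61.9% of windows held a GATA3 region, 71.2% a BHLHE40 region and 87% an H3K27ac region. The median member had 2 GATA3, 3 BHLHE40 and 4 H3K27ac regions, and the median protein-coding gene had 1, 1 and 5. Member windows were not wider, with a median of 48496 bp against 64171 bp. BHLHE40 regions covered 7.65% of the median member window and 1.44% of the median window of all genes. For GATA3 these shares were 2.29% and 0.681%, and for H3K27ac 6.11% and 2.42%. The member median for BHLHE40 is the value of HLA-B, from 1 region of 3314 bp. The 9 values ran from 1.12% (CIITA) to 16.5% (B2M). The medians of all genes include windows without a region. NLRC5, the longest member with a record of 93964 bp, held the most regions, with 4 of GATA3, 6 of BHLHE40 and 16 of H3K27ac. HLA-B and HLA-F held 1 region of each factor. The TAP1 and TAP2 windows overlap, and 2 GATA3, 3 BHLHE40 and 5 H3K27ac regions belong to both, so these genes are not independent of each other.

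**Figure D1:**
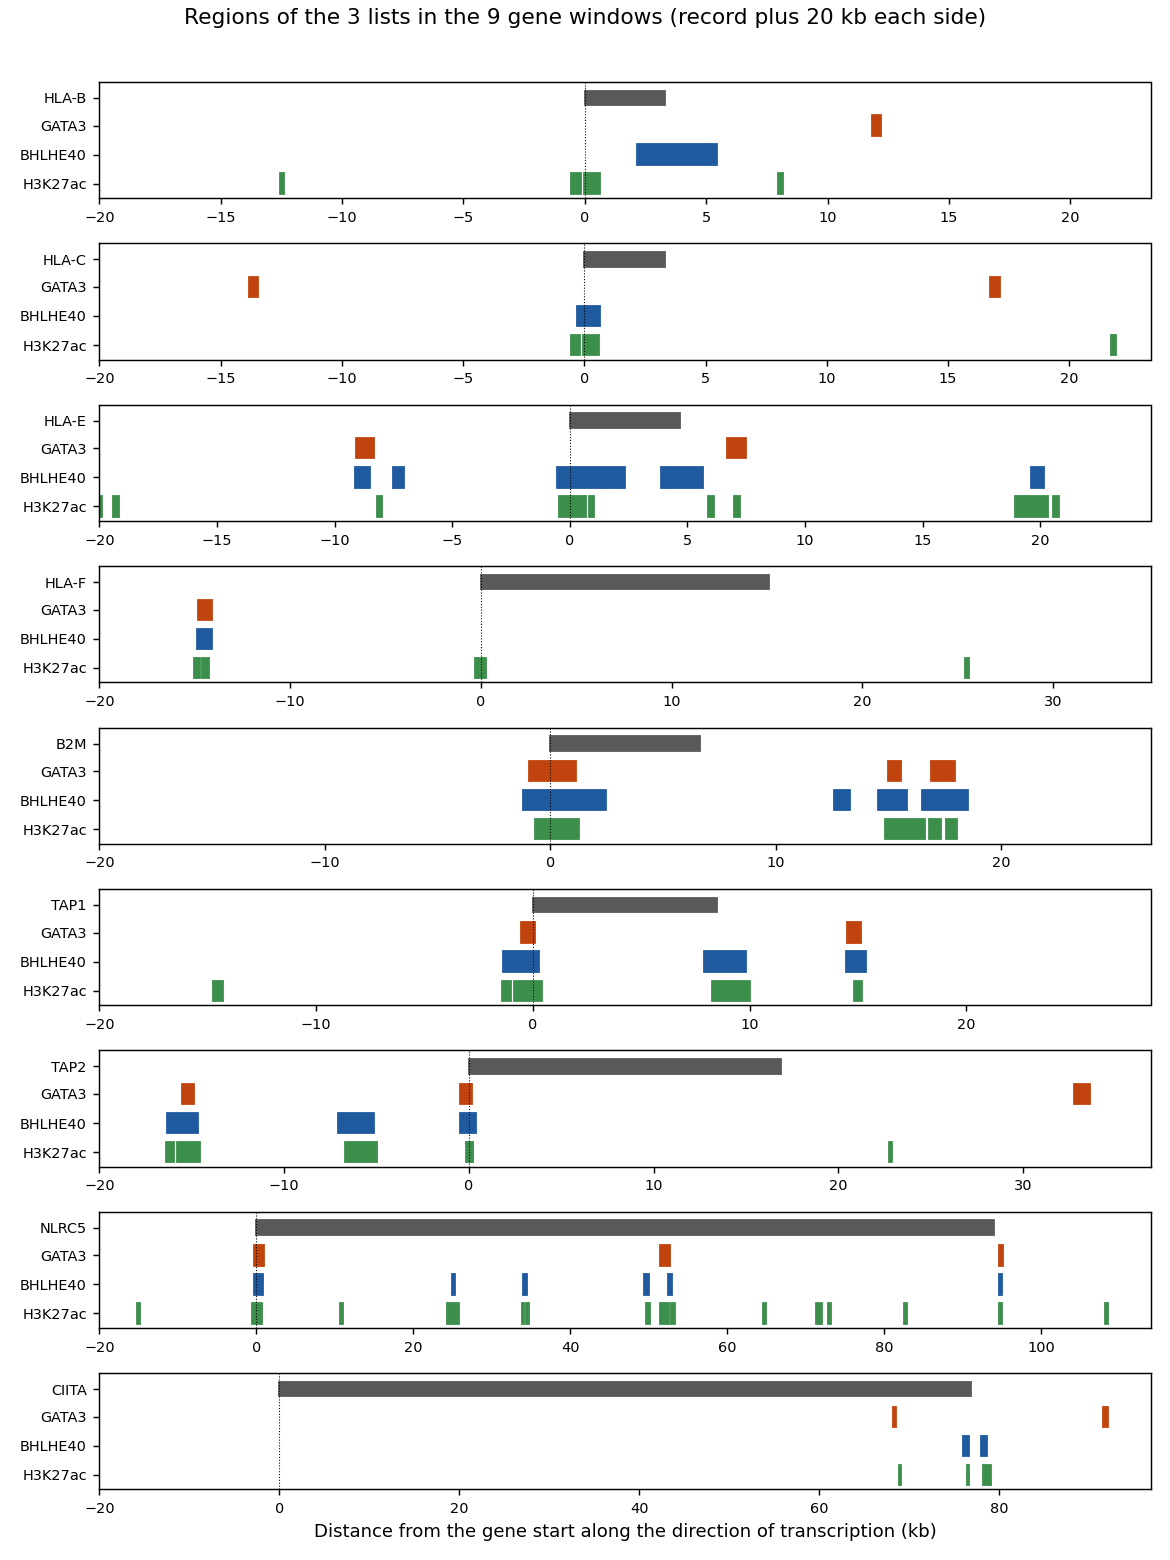
Positions of all GATA3, BHLHE40 and H3K27ac regions (coloured bars) in the window of each gene, with the gene record as a grey bar and the distance from the gene start, in kb along the direction of transcription, on the horizontal axis. Regions of all 3 lists meet at the starts of B2M, TAP1, TAP2 and NLRC5, whereas the regions near CIITA lie at the far end of its record.

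Gene starts separated the members into 4 patterns. A start was called when a region came within 1 kb of it. The starts came from the promoter table. For HLA-E, NLRC5 and CIITA the lower-coordinate end of the record was taken, since these genes are read toward higher coordinates. B2M, TAP1, TAP2 and NLRC5 had all 3 lists at the start. HLA-C and HLA-E had BHLHE40 and H3K27ac without GATA3. HLA-B and HLA-F had H3K27ac without either factor, and CIITA had none of the 3. BHLHE40 was therefore at the start of 6 of 9 members, GATA3 of 4 and H3K27ac of 8. Among protein-coding genes of the promoter table, the shares with a region at a listed start were 49.6% for BHLHE40, 23.7% for GATA3 and 57.7% for H3K27ac. The rule laid down for all genes counted either record end where the table had no entry. It gave 7, 4 and 9, because a BHLHE40 and an H3K27ac region lie at the far end of CIITA. By that rule the background over all protein-coding genes was 47.2% for BHLHE40, 22.2% for GATA3 and 55.4% for H3K27ac. Also by that rule, all 3 lists together were found at 20.4% of genes, BHLHE40 with H3K27ac and no GATA3 at 25%, and H3K27ac alone at 9.14%. CIITA then joins HLA-C and HLA-E. The share of genes with none of the 3 lists was not computed. Of the 11068 genes with H3K27ac at the start, 4068 had both factors and 4985 had BHLHE40 without GATA3. Most acetylated starts thus had BHLHE40, in the background as among the members. With stricter regions (factor score of at least 830, H3K27ac −log10 q of at least 5) the 7, 4 and 9 members became 6, 3 and 7. The shares of all protein-coding genes were not computed at these cuts, so these counts have no background beside them. The start regions of BHLHE40 at HLA-C (score 755), GATA3 at TAP2 (score 765) and H3K27ac at HLA-F (−log10 q 4.55) fell below these cuts. So did the H3K27ac region at the far end of CIITA (−log10 q 2.54). The patterns of HLA-C, TAP2 and HLA-F therefore depend on the setting.

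**Figure D2:**
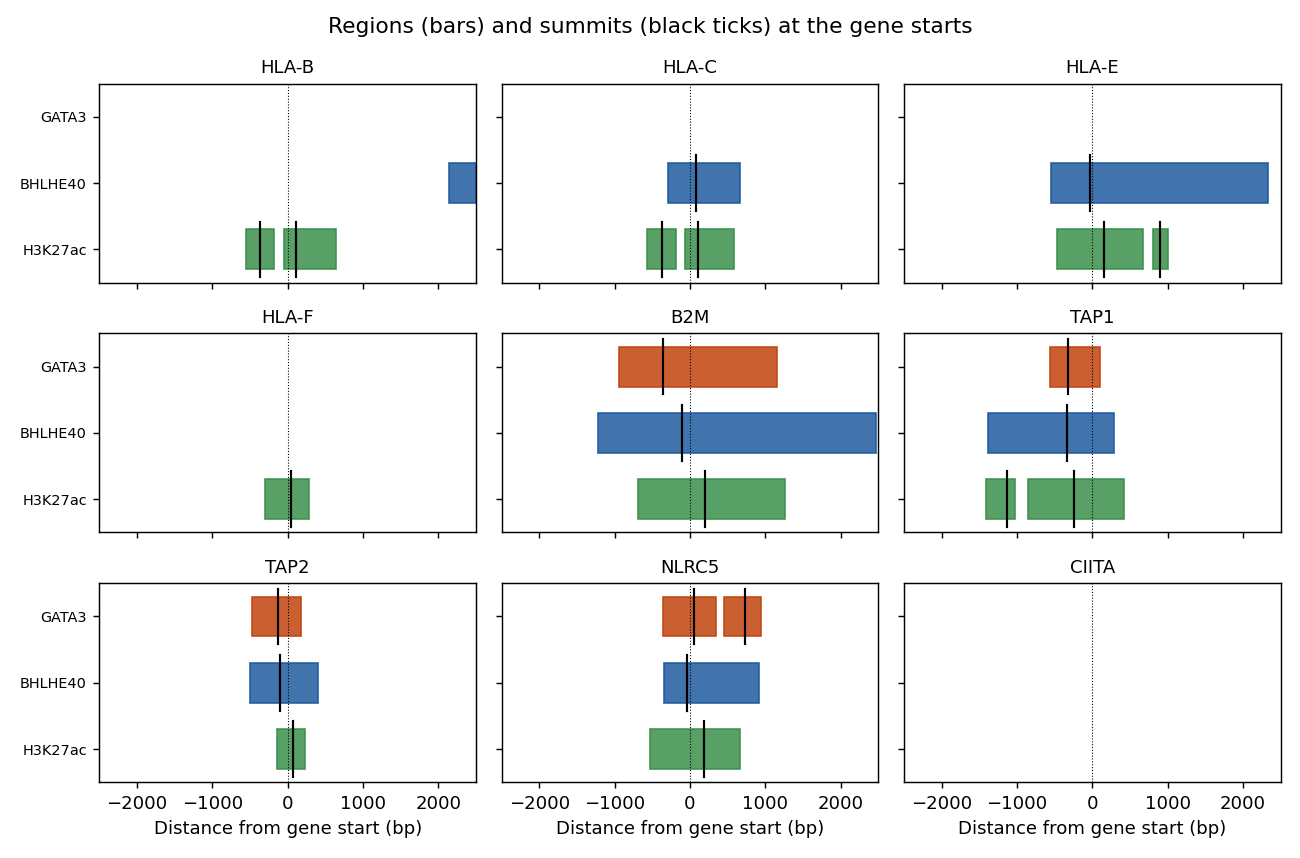
Regions (bars) and their summits (black ticks) near each gene start, with the distance in bp along the direction of transcription on the horizontal axis. H3K27ac is parted into 2 regions just before the starts of HLA-B and HLA-C, and the panel of CIITA is empty.

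Among the heavy chains, HLA-B and HLA-C are classical class I genes that present a wide range of peptides, and they are close copies of each other. Their records lie 81782 bp apart on chromosome 6 and their 250 bases before the start were 89% identical (226 of 254 aligned positions). At HLA-B (positions 31353875 to 31357179) H3K27ac was found at 31356538 to 31357222 (signal value 7.29) and at 31357357 to 31357731 (8.52), which placed them in the top 5.37% and 3.58% of that list. The bases from 177 to 44 before the start lay between them. All the matches marked in the HLA-B sequence above fall in that gap, from the NF-kB-like site to the CCAAT nearest the gene. At HLA-C (positions 31268749 to 31272092) the corresponding regions, 31271508 to 31272163 and 31272282 to 31272659, had signal values of 10.3 and 5.80, and the gap ran from 189 to 72 bases before the start. Here the CCAAT match nearest the gene, 56 to 52 bases before the start, lay outside the gap, and the one farthest from it, 192 to 188, lay mostly outside. The larger value lay on the gene side at HLA-C and on the upstream side at HLA-B. Such a gap in the 250 bases before the start was found in 9.61% of the 8774 protein-coding genes of the promoter table with H3K27ac at the start, and at no other member. This feature was chosen after its values were seen. With 89% identity in these bases, HLA-B and HLA-C are not independent cases of it.

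The factors differed between these copies. At HLA-C, BHLHE40 was found from 31271435 to 31272387. The signal value was 8.86 and the summit was 85 bp inside the gene. This region spanned the H3K27ac gap. HLA-B had no factor at its start: its only BHLHE40 region ran from 31351727 to 31355040, ended 2139 bp short of the start inside the gene, and had a signal value of 7.46. That region was 3314 bp wide, against a median of 739 bp in its list, had 1166 of its bases inside the HLA-B record and the rest beyond its 3′ end, and overlapped no H3K27ac region. The GATA3 regions of both genes lay 12004 to 16898 bp from the start, had signal values of 6.61 to 11.0, and overlapped neither of the other lists. The HLA-C BHLHE40 region had a score of 755. With stricter regions (score of at least 830) neither gene therefore had a factor at its start. How reads shared by near-identical HLA genes were assigned is not given in the sources used here. The contrast between these genes and the H3K27ac gap that both show are therefore uncertain.

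HLA-E and HLA-F are non-classical heavy chains. HLA-E, which shows a narrow set of peptides to natural killer cells, occupies positions 30489509 to 30494194 of chromosome 6. Its start was covered by BHLHE40 (30488963 to 30491843, signal value 19.0), in the top 13.7% of the list, and by H3K27ac (8.10). A weaker H3K27ac region, 30490312 to 30490516 with 2.54, had its summit 901 bp inside the gene. The BHLHE40 summit lay 30 bp before the start. There were 4 further BHLHE40 regions in the window, with signal values of 5.29 to 10.2. The strongest H3K27ac region of the window was not at the gene but 20069 bp from its start, at 30508450 to 30509836, where the signal value reached 9.29, and it held a BHLHE40 region with 7.06. Both GATA3 regions of the window lay away from the start. The stronger, from 30480397 to 30481170 with 17.0, lay 8753 bp upstream, with its summit 89 bp from a BHLHE40 summit.

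HLA-F, a heavy chain with restricted expression, had the strongest factor regions of all 9 windows, and they were far from its start. A GATA3 region from 29708605 to 29709320 reached 40.4, in the top 7.49% of its list, and a BHLHE40 region from 29708551 to 29709328 had 32.1, in the top 4.34%. Their summits lay 8 bp apart and 14411 and 14403 bp upstream of the HLA-F start, outside gene records. A BHLHE40 region this strong was found in 6.36% of the windows of protein-coding genes, and such a GATA3 region in 8.82%. HLA-F is singled out as the highest of 9 windows, so these shares do not describe a gene picked beforehand. A pair of H3K27ac regions, with signal values of 4.39 and 5.13, overlapped both. An H3K27ac value of at least 5.13, the highest of this window, was found in 60.5% of the windows of protein-coding genes. At the start itself HLA-F had 1 H3K27ac region, 29723136 to 29723715, with a signal value of 4.07, and no factor. The CCAAT and ISRE matches of HLA-F, 82 to 53 and 156 to 147 bases before the start, lie inside that H3K27ac region.

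B2M, on chromosome 15 at positions 44711517 to 44718145, had all 3 lists at its start. GATA3 covered 44710580 to 44712668, at a signal value of 27 (top 14.4% of its list). BHLHE40 covered 44710299 to 44713988, at 19.9 (top 12.5%), and H3K27ac covered 44710831 to 44712784, at 9.03 (top 3.01%). Both factor values were the highest at the start of any member. The regions were 2089, 3690 and 1954 bp wide, against list medians of 596, 739 and 232 bp. The BHLHE40 summit lay 103 bp before the start, between the marked NF-kB-like matches (126 to 116 bases before) and the TGACG match (75 to 71 before). The GATA3 summit lay 258 bp farther upstream, inside the record of PATL2, a gene read in the opposite direction from starts 127 and 194 bp away. Regions at this place therefore cannot be assigned to B2M or PATL2 alone.

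Beyond the B2M gene lay a cluster of 2 GATA3, 3 BHLHE40 and 3 H3K27ac regions, with summits between 13037 and 17711 bp from its start. In it a GATA3 region from 44726496 to 44727058 (signal value 11.8) and a BHLHE40 region from 44726051 to 44727320 (14.8) shared their summit position, 44726806. The next pair, from 44728411 to 44729459 for GATA3 (11.6) and 44727995 to 44730030 for BHLHE40 (9.89), had summits 11 bp apart. Both pairs overlapped H3K27ac, whose signal values there were 3.29 to 5.60, and all 4 factor summits lay outside gene records. The remaining BHLHE40 region, with 4.84, overlapped neither other list.

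TAP1 and TAP2 lie side by side on chromosome 6, at positions 32845209 to 32853704 and 32821831 to 32838739, with the immunoproteasome gene PSMB8 between them and PSMB9 beyond TAP1. At the TAP1 start, GATA3 (32853596 to 32854263) reached a signal value of 8.99 and BHLHE40 (32853418 to 32855087) reached 14.4. The H3K27ac region from 32853279 to 32854563 had 9.59, the highest of both TAP windows. TAP1 and PSMB9 are read in opposite directions from starts 488 bp apart, and both factor summits fell between those starts, 14 bp from each other. They lay 323 and 337 bp from the TAP1 start but only 165 and 151 bp from that of PSMB9, inside the PSMB9 sequence printed above. In that sequence the BHLHE40 summit, 151 bases before the start, is close to the TGACG match on the opposite strand at 144 to 140.

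At the TAP2 start the BHLHE40 region from 32838342 to 32839239 was stronger than that at TAP1, with a signal value of 17.2 (top 17.1% against top 24.3%). The GATA3 region from 32838558 to 32839210 was weaker, with 7.31 against 8.99. The H3K27ac region, 32838514 to 32838877, had 5.88. The BHLHE40 and GATA3 summits lay 98 and 131 bp before the start, 33 bp apart. The ISRE match of TAP2, 58 to 49 bases before the start, was inside all 3 regions. Another BHLHE40 region shared by both windows, weaker at 5.17, peaked 11 bp from a PSMB8 start, inside an H3K27ac region with 6.78. The GATA3 region with 11.5 on the other side of TAP2 lay 11283 bp from the start of HLA-DOB, a class II gene, and overlapped neither other list.

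NLRC5, the class I transactivator, occupies positions 56989557 to 57083520 of chromosome 16. Its start held 2 GATA3 regions, at 56989205 to 56989902 (signal value 8.31) and at 56990015 to 56990493 (5.56). A single BHLHE40 region, 56989210 to 56990469 with 11.3, covered nearly the same stretch, and H3K27ac had 7.90. The BHLHE40 summit lay 42 bp before the record and the stronger GATA3 summit 55 bp inside it. Neither factor was strongest there. The highest BHLHE40 signal value, 14.1, belonged to a region 34234 bp inside the gene (57023589 to 57024034), and the highest GATA3 value, 24.5, to a region just past the far end (57084148 to 57084701), 903 bp outside the record. At that far end the BHLHE40 region was among the weakest of its list (4.44, rank 25198 of 26205), with its summit 52 bp from that of GATA3. All 6 BHLHE40 regions of NLRC5 overlapped H3K27ac. The highest of the 16 H3K27ac signal values, 8.49, was not at the start but 25387 bp inside the gene (57014450 to 57015414), where BHLHE40 had 5.38 and GATA3 had no region.

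CIITA, the class II transactivator, occupies positions 10866206 to 10943021 of the same chromosome. In contrast to NLRC5, no region of any list lay in the 20 kb before its record or in the 68192 bp after its start. The 2 BHLHE40 regions were at the other end. The first, 10942224 to 10942887 (9.29), peaked 23 bp from the start of DEXI, which is inside the CIITA record. The second, 10944177 to 10944824 (8.56), peaked 54 bp from the start of CLEC16A. The H3K27ac regions that overlapped them had signal values of 2.56 and 7.12. The GATA3 regions, with 10.1 and 17.3, overlapped neither other list.

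**Figure D3:**
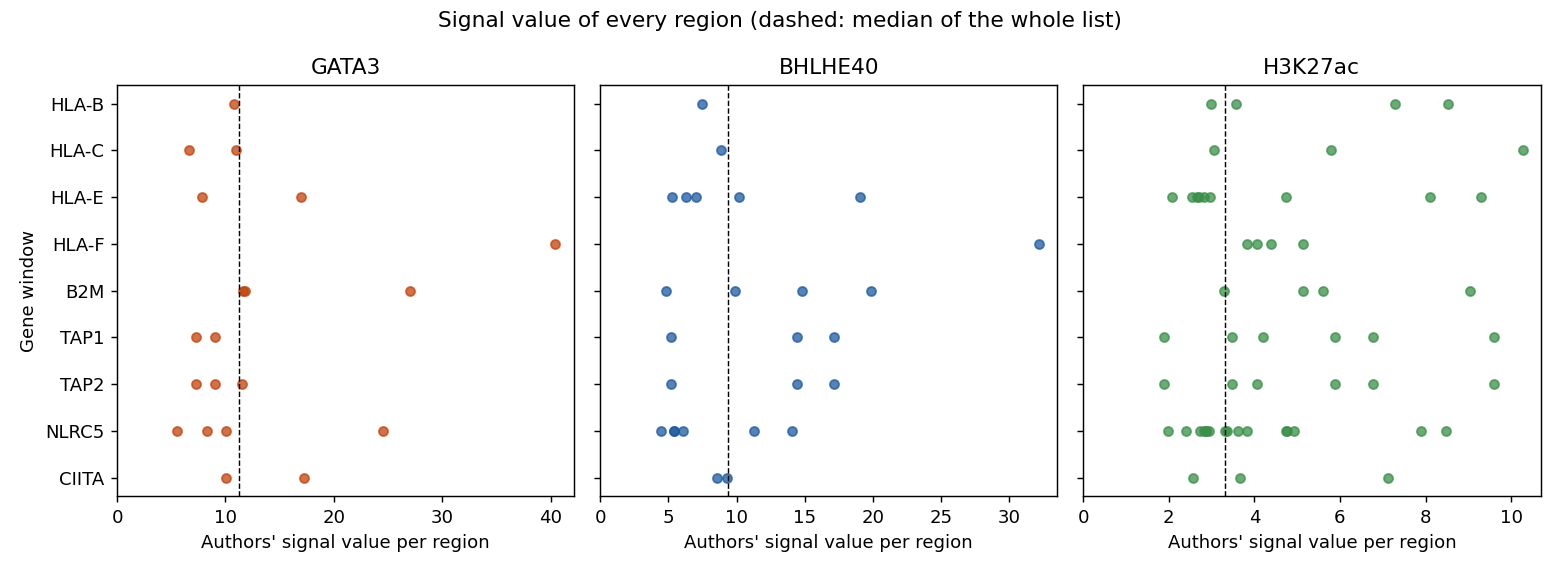
Signal value of every region (points) in the window of each gene, 1 panel per list, with the median of the whole list as a dashed line and the authors' signal value on the horizontal axis. The GATA3 and BHLHE40 points at 40.4 and 32.1 in the HLA-F row are the highest of their panels, and every window has an H3K27ac point above the list median of 3.31.

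As a set, the members' factor regions were ordinary in strength. The median GATA3 signal value was 10.9 over the 18 regions and 11.2 over the list, and that of BHLHE40 was 8.86 over 23 regions and 9.35 over the list. For H3K27ac it was 3.82 over 50 regions and 3.31 over the list. The strongest region of a window was in the top 25% of its list for 3 of 9 members in GATA3 (HLA-F, B2M and NLRC5), 5 of 9 in BHLHE40 (HLA-E, HLA-F, B2M, TAP1 and TAP2) and 9 of 9 in H3K27ac. Over all protein-coding genes the shares were 24.7%, 33.5% and 75.4%. Ranked by −log10 p-value, 3 members rather than 5 met this for BHLHE40, and with 50 kb on each side 5 rather than 3 met it for GATA3. The shares of all genes were not computed for these settings, so neither change can be set beside a background. TAP1 and TAP2 have the same strongest BHLHE40 region and the same strongest H3K27ac region, so each of these regions is counted for both genes.

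Of the 18 GATA3 regions, 11 (61.1%, 95% Wilson interval 38.6% to 79.7%) overlapped a BHLHE40 region, against 48.7% of the whole list, and 11 (the same share) overlapped H3K27ac, against 49.1%. Of the 23 BHLHE40 regions, 10 (43.5%, interval 25.6% to 63.2%) overlapped GATA3 and 18 (78.3%, interval 58.1% to 90.3%) overlapped H3K27ac, against 53% and 76.4% of the list. Each of these 4 shares of a whole list was inside the interval of the members. Read from the other side, 26 of the 50 H3K27ac regions (52.0%, interval 38.5% to 65.2%) overlapped BHLHE40, against 22.9% of the list, and 12 (24.0%, interval 14.3% to 37.4%) overlapped GATA3, against 15.3%. Several of these H3K27ac regions are pieces over a single factor region, as at HLA-C, HLA-F and B2M, so they do not count separate meetings of the lists. These intervals cover counting error only, and regions of one window are not independent. The 11 GATA3 regions that met BHLHE40 had summits 0 to 1038 bp from the BHLHE40 summit, with a median of 52 bp (35 bp over the list), and 5 of the 11 were within 50 bp, against 61.5% of the pairs in the list: those near HLA-F, the 2 beyond B2M, and those at TAP1 and TAP2. The 6 GATA3 regions that overlapped neither other list lay in the HLA-B, HLA-C, TAP2 and CIITA windows.

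Other genes of antigen presentation, in lists chosen with earlier results of these data known, were read at their starts by the same rule. Of 12 genes of class I peptide supply and loading, BHLHE40 was at the start of 12, GATA3 of 5 and H3K27ac of 12. The highest BHLHE40 signal values there were 63.4 at CALR and 34.9 at CANX, which encode chaperones of the endoplasmic reticulum, and 19.1 at PDIA3, a disulfide isomerase of the loading complex. PSMB9 shares its regions with TAP1. Of 10 regulators of MHC promoters, BHLHE40 was at the start of 9, GATA3 of 7 and H3K27ac of 10. Among them the BHLHE40 value was 42.1 at IRF2 and 31.6 at IRF1, which both encode interferon regulatory factors. For IRF2 and PDIA3 no start was listed, so either record end counted. RFXAP, a subunit of the RFX complex, was the gene without BHLHE40. By contrast, 0 of 8 genes of MHC class II and its partners had either factor at the start. H3K27ac was at the start of 2 of the 8, CD74 (2.85) and HLA-DMA (2.71), both under the list median of 3.31. These are counts beside a background of 47.2% for BHLHE40, 22.2% for GATA3 and 55.4% for H3K27ac, and no test of a list was made. That background includes genes without H3K27ac at the start. Of the 11068 genes with H3K27ac there, 4068 had both factors, 4985 had BHLHE40 without GATA3 and 1825 had neither factor. Most starts with H3K27ac thus also had BHLHE40.

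**Figure D4:**
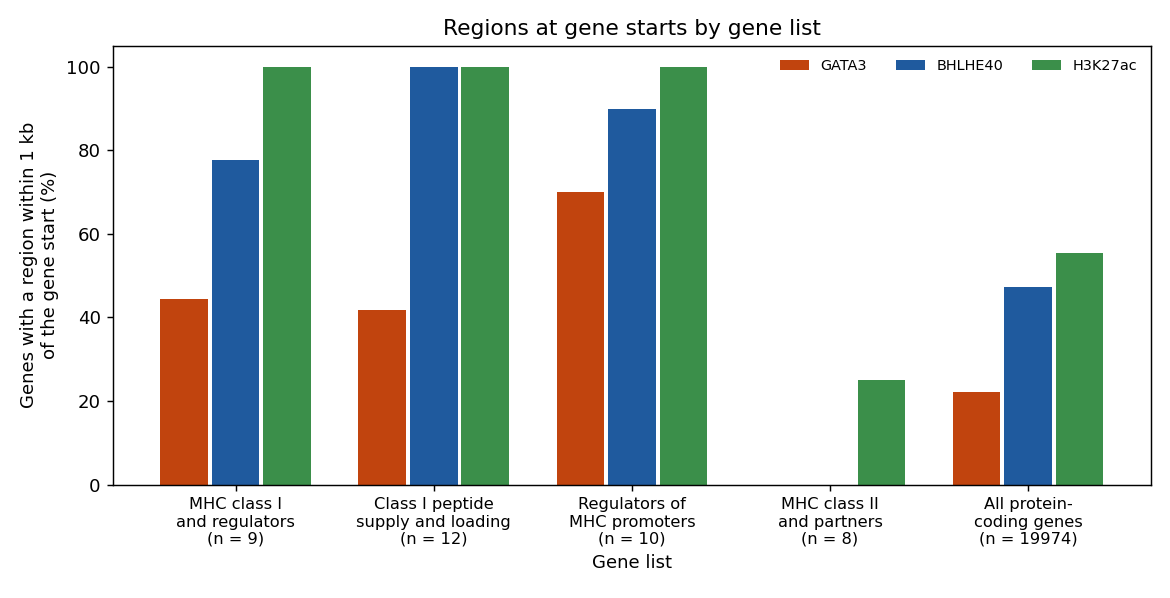
Share of genes (vertical axis, %) with a GATA3, BHLHE40 or H3K27ac region within 1 kb of the gene start in the 9 members, 3 lists of other antigen-presentation genes and all protein-coding genes, where genes without a listed start count either record end. The class II list has no factor bar, and the BHLHE40 bars of the other lists stand above the 47.2% of all protein-coding genes. That share includes genes without H3K27ac at the start.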

How the data were processed

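ChIP-seq peaks of stimulated Jurkat cells with a control lentivirus were analysed for GATA3, BHLHE40 and H3K27ac, 1 list per group of 2 samples. The series has 38 samples in 19 groups by title. Per the submitters' processing notes, hg38, bcl2fastq 2.20 and MACS2 were used. Aligner, filters, treatment of multiply mapped reads and use of input are not given in the sources used here. Per the labels, the factor lists are named for an IDR (irreproducible discovery rate) of 0.05 and the H3K27ac list as pooled. The deposited columns are a score, a signal value of enrichment and 2 significance columns, −log10 p-value and −log10 q-value, all given by the authors per peak. What signal is relative to is not stated.

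Gene records and promoters came from RefSeq tables for GRCh38.p14. Of 19974 protein-coding records, 15813 had a listed start. For the rest either record end was used. The table gives no strand for HLA-E, NLRC5 and CIITA, whose reading direction is general knowledge. Regions overlapped when they shared at least 1 bp. Positions are 1-based. The promoters of HLA genes were aligned globally with Biopython 1.88. Scripts ran in Python 3.11.15 with pandas 2.3.3, numpy 2.4.6 and scipy 1.17.1. Figures were drawn with matplotlib 3.10.9. Overlap, start and motif functions were tested on simulated data.

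The members and gene lists were chosen with earlier results of these data known. All 9 members are named, with their strongest region per list and those at the start. In each other list up to 3 genes with the highest BHLHE40 signal value at the start are named, and other genes only where a described region lies. A gene of the list of regulators is not reported here by name. The H3K27ac gap was chosen after its values were seen. No test was run, since no value per sample was used.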

Additional observations from a re-analysis of the deposited data

How the results depend on the processing

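Over 20 results, 68 alternative settings were computed, 62 planned and 6 added after seeing the data, and 59 left the result as it was (counts within 1.5 times, shares within their 95% interval, and the median summit distance exactly the same). With 50 kb on each side the windows held 30 GATA3, 35 BHLHE40 and 89 H3K27ac regions, and 5 members had a GATA3 region in the top 25% of its list. Stricter H3K27ac regions (−log10 q of at least 5) numbered 25. Members with a stricter region at the start numbered 6 for BHLHE40, 3 for GATA3 and 7 for H3K27ac. These were counted as unchanged from 7, 4 and 9. Ranking by −log10 p-value put 3 members in the top 25% for BHLHE40. For these alternatives no share of all protein-coding genes was computed. The median summit distance was 51.5 bp with a factor score of at least 830, 89 bp with 10 kb windows and 36 bp with 50 kb windows. Wider or narrower windows hold other regions by construction. The cause of the other changes was not tested. No paired analysis was possible because a list holds no value per sample, and so no replicate could be left out either. Depth is unknown and limits every count of regions.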
